A study of Homo sapiens with 6 samples.

Results

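The homologous recombination and Fanconi anemia genes described here are 39 genes chosen by name for their known roles in repairing broken or crosslinked DNA. All 39 were found, with 1 entry each, among the 58735 genes of the expression table. The cells were MDA-MB-231, an established human line from a basal-like breast adenocarcinoma. They carried a non-targeting shRNA (SCR in the library names, shSCR in the study), which is shared by both groups, and the sample labels give their genotype as WT. The 0 Gy group (n = 3) was not irradiated, and the 10 Gy group (n = 3) received 10 Gy of gamma rays from a 137Cs source and was collected after 24 h. No source says whether replicates were separate cultures, so the p-values measure the spread between these libraries, which may be technical.

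Homologous recombination repairs a broken chromosome by copying the intact sister chromatid, and therefore works mainly in S and G2 phase. Nucleases first trim the broken ends (end resection), BRCA1, PALB2 and BRCA2 then prepare the exposed strand for pairing with the sister, and helicases and nucleases finally separate the joined molecules. The Fanconi anemia pathway acts on DNA crosslinks and stalled forks. Its core complex, with the ubiquitin-conjugating enzyme UBE2T, attaches ubiquitin to the FANCD2-FANCI pair, and downstream nucleases and recombination proteins complete the repair. Inherited mutations in several of these genes cause familial breast and ovarian cancer or Fanconi anemia.

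Levels are given as FPKM, fragments per kilobase of exon scaled to sequencing depth, as the authors deposited them. Between 15643641 and 28861781 reads on genes could be recovered per library. Correlations of log2(FPKM + 1) across genes were at least 0.992 between libraries of the same dose and at most 0.989 between doses, and no library stood apart. The line's markers VIM, CD44, EGFR, KRT8, KRT18, CAV1 and AXL had group means between 27.4 and 301 FPKM, PGR and the T cell gene CD3E were at 0 in every library, the estrogen receptor gene ESR1 reached at most 0.0169 FPKM, and the leukocyte gene PTPRC had 3 reads over all 6 libraries. Of the other genes listed as low in this line, ERBB2 stood at 6.76 to 8.08 FPKM, EPCAM at group means of 1.44 and 1.34 FPKM and CDH1 at 0.273 to 0.479 FPKM. The endothelial gene PECAM1 was at 1.22 to 1.23 FPKM at 0 Gy and higher, at 1.88 to 1.97 FPKM, at 10 Gy. Changes were tested with limma on log2(FPKM + 1) for 12128 genes whose average over the libraries reached 1 FPKM, and a gene was called at an adjusted p (Benjamini-Hochberg over all 12128) under 0.05. On this scale the change of a low gene is understated, so the plain difference of mean FPKM in percent is given beside it. In all, 2874 genes were called lower and 1443 higher at 10 Gy. These totals were 1830 and 875 without 10 Gy replicate 1, and 1808 and 852 without 10 Gy replicate 2. The split depends on the scaling of the libraries: it was 1066 lower and 3113 higher with every library rescaled to the same FPKM sum (TPM), which moved the median change of all genes up by 0.12 on the log2 scale, and 1888 lower and 2776 higher with recovered reads scaled to library totals.

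Of the 38 members tested, 16 were called lower at 10 Gy, against a background of 23.7% of all genes tested, and 1 was called higher, against a background of 11.9%. The share of members called lower was 42.1% and the share called higher 2.63%. Their median change was -0.15 on the log2(FPKM + 1) scale, beside -0.04 over all genes tested, and the difference between these medians was between -0.16 and -0.10 in the 16 alternative settings tried. In 21 members all 10 Gy libraries lay below all 0 Gy libraries, against a background of 32.8%, and in 4 they all lay above, against a background of 19.1%. A call together with a fall of the mean to 1/1.3 or less was seen in 6 members, EXO1, RBBP8, FANCC, NBN, RAD54L and MUS81, against a background of 4.51%. The remaining member, RAD50, was below 1 FPKM and was not tested. With TPM scaling 8 members were called lower and 4 higher, beside 1066 and 3113 of all 12128 genes in that setting. With recovered reads scaled to library totals 13 and 4 members were, beside 1888 and 2776 of all genes. The lower calls shared by all 16 alternatives in which the gene was tested were EXO1, RBBP8, FANCC, NBN, RAD54L, MUS81, FANCE and DNA2, and the direction of the other 8 lower calls did not flip under any of them.

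**Figure D1:**
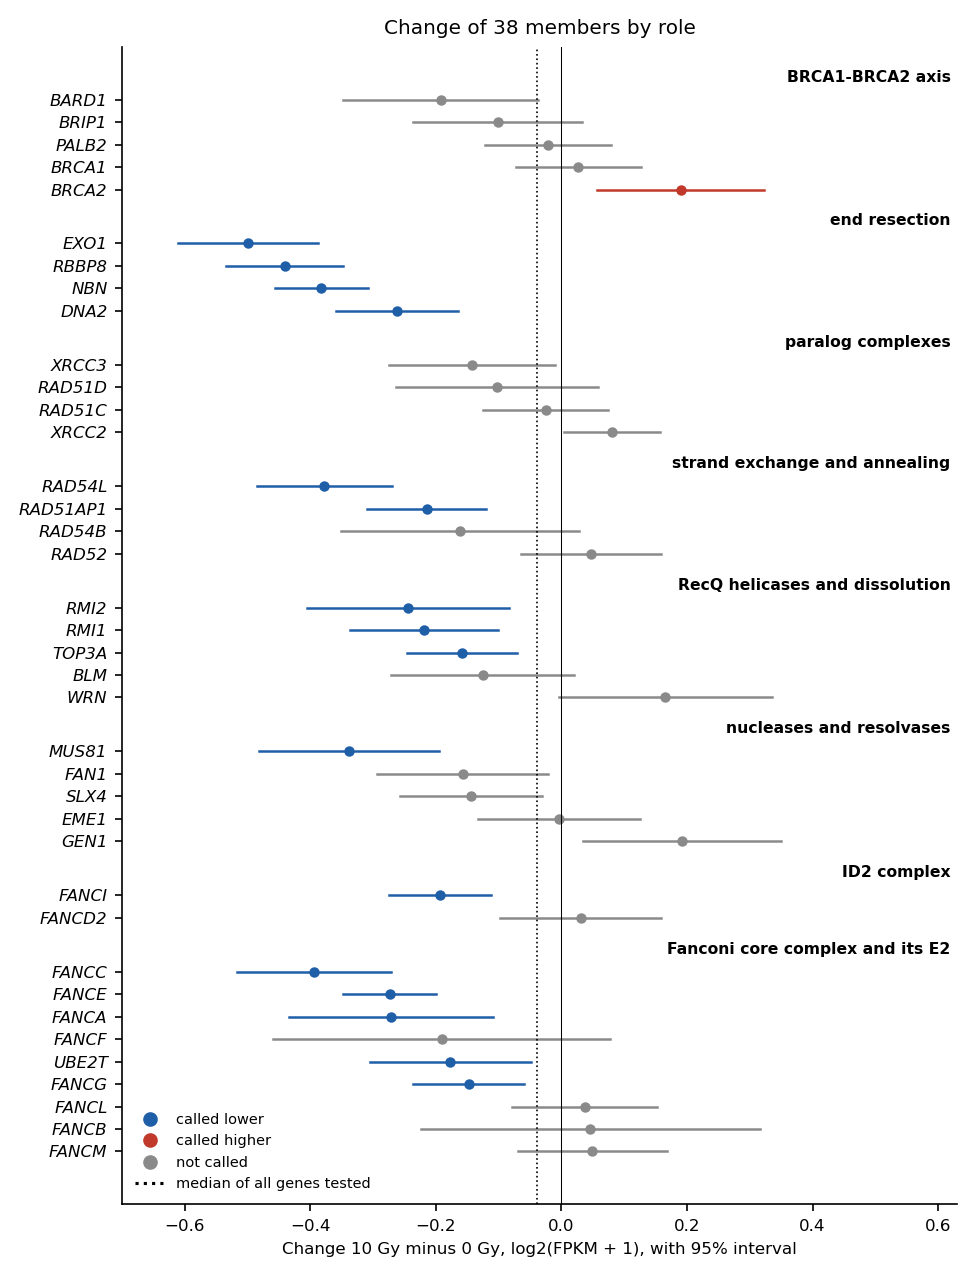
Change of the 38 tested members between 10 Gy and 0 Gy on the log2(FPKM + 1) scale, grouped by role, with points for the limma estimate, lines for its 95% interval, blue for called lower, red for called higher, grey for not called, and a dotted line at the median of all genes tested. All 4 tested end resection members lie left of -0.2, while BRCA2 is the red point at 0.19.

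Summed over the 39 members, the FPKM were 340, 332 and 332 in the 0 Gy libraries and 290.3, 289 and 292 in the 10 Gy libraries. The groups did not overlap. Nor did they for the sum over all genes, which was 278380, 270952 and 269611 FPKM at 0 Gy and 247396, 246920 and 254918 FPKM at 10 Gy. The mean sum of the members went from 335 ± 4.85 to 291 ± 1.75 FPKM (SD, n = 3 each). The members' share of all FPKM in a library went from between 0.122% and 0.123% to between 0.115% and 0.117%. As these are bulk samples, fewer cells in a given state and less RNA per cell cannot be told apart.

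Among the members at 0 Gy, levels per exon length spanned from 45.6 ± 3.48 FPKM for UBE2T to 0.583 ± 0.0922 FPKM for RAD50 (SD, n = 3). RAD50, XRCC3 and RAD54B share over 50% of their exon bases with another gene, and how shared reads were counted is not known. If all their reads lay in unshared bases, their 0 Gy means would be 2.87, 16.8 and 3.15 FPKM, so their places in the order are uncertain. RAD51AP1 at 26.0 FPKM and FANCG at 23.7 FPKM came next, followed by NBN at 18.7, TOP3A at 17.1, RBBP8 at 16.2, EXO1 at 15.6, RMI1 at 15.5, FANCE at 14.2 and FANCI at 12.0 FPKM. By the deposited values, only the order of RBBP8, EXO1 and RMI1 was unclear in this upper range, since neighbours among these 3 overlapped between libraries. The central genes of the pathway were lower: BRCA1 stood at 6.37 FPKM, RAD51C at 5.86, FANCD2 at 4.65, PALB2 at 4.57 and BRCA2 at 3.56 FPKM. Within the stretch from XRCC3 at 3.92 FPKM to FANCM at 3.06 FPKM, each gene overlapped with the next in order. The 16 members called lower had a median 0 Gy level of 14.9 FPKM, and the 21 not called had a median of 3.45 FPKM. The tested scale understates the change of a low gene, and the part of this in the difference was not tested. With a pseudocount of 0.1, where the understatement is smaller, the same 16 members were called lower and SLX4 was added. Matching medians over all genes are not given. Across the 38 tested members the Spearman correlation of 0 Gy level with the log2 ratio of means was -0.32, and it was -0.35 across 12127 genes tested. Both share the 0 Gy libraries on each axis. With exon length the correlation was 0.18 in the members and 0.17 across genes.

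**Figure D2:**
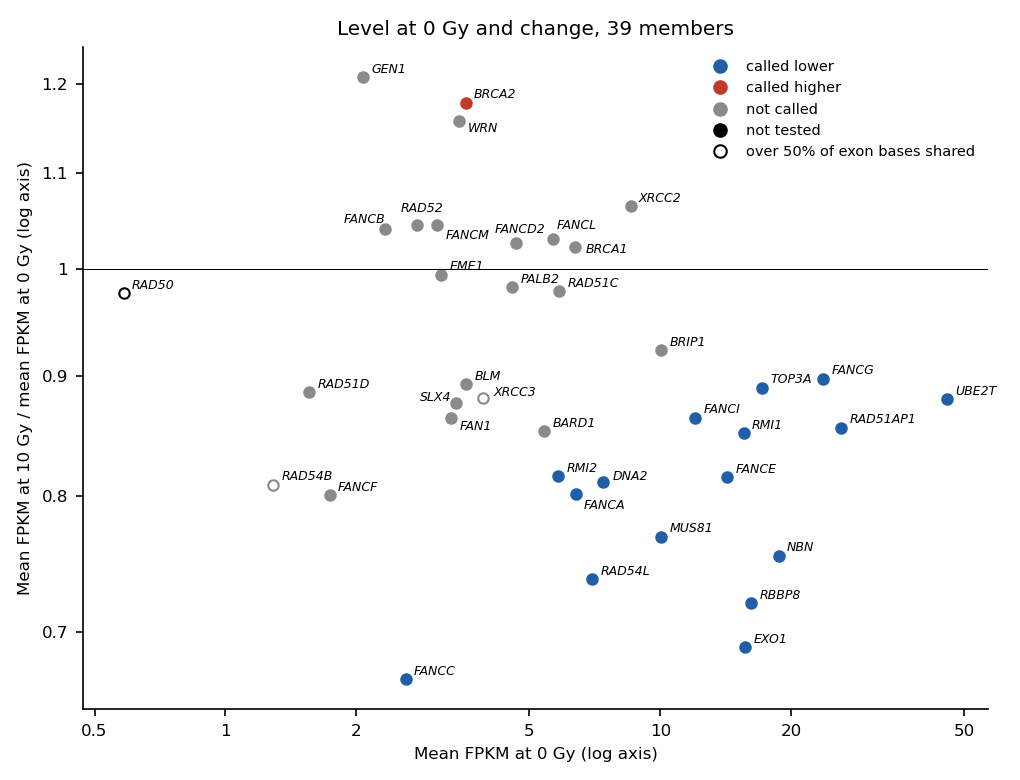
Mean FPKM at 0 Gy (log axis) against the ratio of mean FPKM at 10 Gy to 0 Gy (log axis) for all 39 members, coloured by call, with open points for the 3 genes that share over 50% of their exon bases with another gene. Members called lower lie mostly to the right of 5 FPKM, with FANCC at 2.60 FPKM as the exception, and GEN1, BRCA2 and WRN are the uppermost points.

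Promoter windows of RefSeq (GRCh38.p14, 250 bases before to 50 bases after a gene's start, the first window listed for each gene) were at hand for 33 of the 39 members, not for DNA2, FANCI, NBN, RAD54B, RMI2 and WRN. They are shown for the leading genes of the fall, EXO1, RBBP8 and FANCC, and for BRCA2, the member called higher, to let the starts of genes that moved in opposite directions be compared. Each was searched on both strands for the E2F motif (TTTCCCGC, TTTCGCGC, TTTGCCGC or TTTGGCGC), the CHR motif (TTTGAA) and the CCAAT box (CCAAT). Capitals mark the matches, which do not overlap each other. The windows, read 5′ to 3′ on the gene's strand, are EXO1 at chr1:241847954-241848253 (+), RBBP8 at chr18:22933078-22933377 (+), FANCC at chr9:95317660-95317959 (-) and BRCA2 at chr13:32315258-32315557 (+). The EXO1 and BRCA2 windows contain the start of the gene in the annotation of the expression table, whereas those of RBBP8 and FANCC lie at a start inside the longer span of that annotation.
EXO1: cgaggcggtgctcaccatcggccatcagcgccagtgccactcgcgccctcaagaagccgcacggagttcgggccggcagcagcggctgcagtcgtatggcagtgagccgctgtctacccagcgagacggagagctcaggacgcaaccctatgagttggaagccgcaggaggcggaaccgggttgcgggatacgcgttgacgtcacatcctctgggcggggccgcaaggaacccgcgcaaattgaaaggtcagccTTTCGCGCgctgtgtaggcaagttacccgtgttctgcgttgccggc
RBBP8: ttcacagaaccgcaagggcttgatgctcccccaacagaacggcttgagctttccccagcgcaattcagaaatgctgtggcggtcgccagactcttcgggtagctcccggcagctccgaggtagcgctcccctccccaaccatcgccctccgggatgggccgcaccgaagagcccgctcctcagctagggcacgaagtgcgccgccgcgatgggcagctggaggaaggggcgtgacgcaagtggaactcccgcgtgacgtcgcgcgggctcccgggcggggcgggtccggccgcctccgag
FANCC: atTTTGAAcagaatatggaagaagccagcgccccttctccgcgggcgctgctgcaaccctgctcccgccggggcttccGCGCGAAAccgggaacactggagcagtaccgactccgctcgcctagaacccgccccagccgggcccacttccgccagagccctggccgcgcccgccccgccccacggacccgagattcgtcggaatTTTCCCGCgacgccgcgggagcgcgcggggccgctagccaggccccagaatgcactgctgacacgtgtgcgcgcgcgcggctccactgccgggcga
BRCA2: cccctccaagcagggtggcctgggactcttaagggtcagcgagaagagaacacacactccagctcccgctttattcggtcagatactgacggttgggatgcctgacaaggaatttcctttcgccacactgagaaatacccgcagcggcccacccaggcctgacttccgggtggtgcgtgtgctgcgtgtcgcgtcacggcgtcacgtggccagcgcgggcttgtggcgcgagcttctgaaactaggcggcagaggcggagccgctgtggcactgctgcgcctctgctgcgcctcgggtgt

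The EXO1 window held 1 E2F match and the FANCC window 3 matches, 2 of E2F and 1 of CHR. The RBBP8 and BRCA2 windows held none of these letters. Over all members with a window, the E2F motif was present in 6 of 33 (18.2%), beside 3.33% of the 27305 genes with a window. The 6 were EXO1, FANCA and FANCC, which were called lower, and FANCD2, GEN1 and XRCC2, which were not called. The CHR motif was present in 3 of 33 members (9.09%), beside 15.4% of all genes, and the CCAAT box in 12 of 33 (36.4%), beside 35.7%. These matches describe letters only.

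All 4 tested members of end resection, the trimming of broken ends to expose a strand, were called lower, against the background of 23.7%. MRE11, the nuclease that starts this step, is not among the members and was higher in every irradiated library without being called. EXO1, the long-range exonuclease (ENSG00000174371, chromosome 1, 241847967 to 241895148 on GRCh38), had 15.5, 15.8 and 15.6 FPKM at 0 Gy and 11.0, 9.99 and 11.3 FPKM at 10 Gy. It fell by 31.1% (log2 change -0.50, SE 0.048, limma, adjusted p = 0.000743). RBBP8, which encodes CtIP, the cofactor that starts resection (chromosome 18, 22798261 to 23026488), had 16.8, 15.7 and 16.0 FPKM at 0 Gy and 11.3, 11.5 and 12.1 FPKM at 10 Gy. Every irradiated library of both genes lay below every control library by more than the spread within either group. RBBP8 fell by 28.0% (log2 change -0.44, SE 0.039, limma, adjusted p = 0.000696). NBN, the NBS1 subunit of the MRE11 complex that binds breaks, went from 18.2, 18.8 and 19.1 FPKM to 14.0, 14.1 and 14.3 FPKM. It fell by 24.5% (log2 change -0.38, SE 0.032, limma, adjusted p = 0.000593), again without overlap. DNA2, a nuclease and helicase that acts beside EXO1, had 7.58, 7.31 and 7.21 FPKM at 0 Gy and 6.10, 6.11 and 5.72 FPKM at 10 Gy. It fell by 18.9% (log2 change -0.26, SE 0.041, limma, adjusted p = 0.00378), the smallest change of the 4. All 4 were called lower in every alternative, and their median change was -0.41, and -0.31 with TPM scaling. The members were grouped by role with earlier results of these data known.

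RAD50, the ATPase of the same MRE11 complex, was listed at 0.528, 0.533 and 0.690 FPKM at 0 Gy and at 0.537, 0.572 and 0.600 FPKM at 10 Gy, and the groups overlapped. Of its exon bases, 79.7% are shared with AC116366.3 on the same strand, to which 1.33 reads per library were assigned on average, and the part of this overlap in the RAD50 level was not tested. At least 80 reads lay on RAD50 in each library. Summed over the 5 resection members, the FPKM went from 58.5 ± 0.255 to 43.1 ± 0.901 (SD, n = 3 each).

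**Figure D3:**
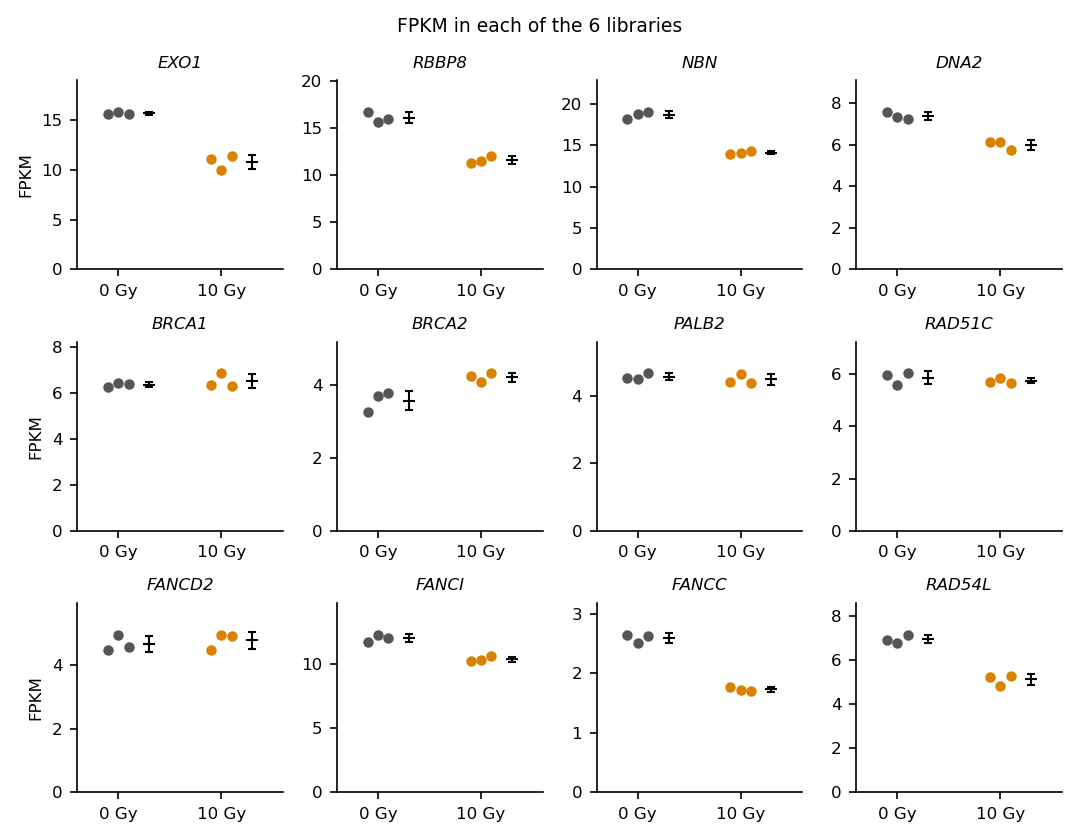
FPKM of 12 members in each of the 6 libraries, grey points for 0 Gy and orange for 10 Gy, with the mean ± SD of each group (n = 3) beside the points and every axis starting at 0. The groups separate for the resection genes in the top row, for BRCA2 upwards and for FANCI, FANCC and RAD54L downwards, and overlap for BRCA1, PALB2, RAD51C and FANCD2.

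Of the 5 genes of the BRCA1-BRCA2 axis, none was called lower by limma (at an unadjusted p under 0.05 BARD1 was lower), and BRCA2 was called higher. BRCA1, the E3 ligase and scaffold, had 6.27, 6.44 and 6.40 FPKM at 0 Gy and 6.36, 6.87 and 6.32 FPKM at 10 Gy. PALB2, which links BRCA1 to BRCA2, had 4.53, 4.50 and 4.68 FPKM at 0 Gy and 4.42, 4.66 and 4.39 FPKM at 10 Gy. The groups overlapped in both genes. The change of BRCA1 was 0.03 with a 95% interval from -0.07 to 0.13 (log2(FPKM + 1), limma, adjusted p = 0.650), and that of PALB2 was -0.02 with an interval from -0.12 to 0.08 (limma, adjusted p = 0.726). The direction of these small values was not stable: PALB2 was above 0 with TPM scaling and with recovered reads, and BRCA1 below 0 without 10 Gy replicate 2 (-0.0066).

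BRCA2, the mediator of strand pairing (chromosome 13, 32315474 to 32400266), had 3.26, 3.68 and 3.76 FPKM at 0 Gy and 4.22, 4.06 and 4.32 FPKM at 10 Gy. All irradiated libraries lay above all control libraries. BRCA2 rose by 17.9% (log2 change 0.19, SE 0.057, limma, adjusted p = 0.0365). The adjusted p was 0.0670 and 0.0526 without 0 Gy replicates 1 and 2, and 0.101, 0.0699 and 0.106 without 10 Gy replicates 1, 2 and 3. The direction was the same in all 15 alternatives in which BRCA2 was tested, and 8 of these made the call. BARD1, the obligate partner of BRCA1, had 5.05 to 5.80 FPKM at 0 Gy and 4.19 to 4.91 FPKM at 10 Gy, without overlap, and its change of -0.19 was not called (limma, adjusted p = 0.0580), although it was when only genes averaging 5 FPKM or more were tested (adjusted p = 0.0417) and among protein-coding genes alone (adjusted p = 0.0292). BRIP1, a helicase that binds BRCA1, had 9.35 to 10.9 FPKM at 0 Gy and 8.94 to 9.52 FPKM at 10 Gy, and the ranges overlapped. Its change was -0.10, and 0.02 with TPM scaling.

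None of RAD51C, RAD51D, XRCC2 and XRCC3, members of the paralog complexes that assist strand pairing, was called by limma. At an unadjusted p under 0.05, XRCC3 was lower and XRCC2 higher. RAD51C, which belongs to both paralog complexes, had 5.97, 5.58 and 6.03 FPKM at 0 Gy and 5.69, 5.85 and 5.66 FPKM at 10 Gy. The groups overlapped, and the change was -0.03 with a 95% interval from -0.12 to 0.07 (limma, adjusted p = 0.668). It was above 0 with TPM scaling (0.09) and with recovered reads scaled to library totals (0.04). XRCC2 was tightly grouped, between 8.37 and 8.65 FPKM at 0 Gy and between 9.05 and 9.11 FPKM at 10 Gy. Its irradiated libraries all lay above the controls, but its change of 0.08 was not called (limma, adjusted p = 0.0939), although it was with TPM scaling (adjusted p = 0.00879) and with recovered reads (adjusted p = 0.0173). XRCC3 went from between 3.64 and 4.18 FPKM to between 3.30 and 3.57 FPKM and was not called. Of its exon bases 76.7% lie opposite exons of KLC1, and whether counting used strand is not given in the sources used here. RAD51D had 1.47 to 1.69 FPKM and 1.29 to 1.48 FPKM in the 2 groups, which overlapped.

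Of the strand exchange and annealing genes, RAD54L and RAD51AP1 fell. RAD54L, a translocase that drives strand exchange, had 6.93, 6.79 and 7.17 FPKM at 0 Gy and 5.25, 4.84 and 5.31 FPKM at 10 Gy. RAD51AP1, which stimulates strand invasion, had 27.4, 25.4 and 25.2 FPKM at 0 Gy and 22.8, 22.1 and 21.8 FPKM at 10 Gy. In neither gene did the groups overlap. RAD54L fell by 26.3% (log2 change -0.38, SE 0.046, limma, adjusted p = 0.00155) and RAD51AP1 fell by 14.4% (log2 change -0.21, SE 0.040, limma, adjusted p = 0.00722). With TPM scaling RAD51AP1 was not called (change -0.09, adjusted p = 0.103). RAD54L shares 25.1% of its exon bases with LRRC41 on the opposite strand. RAD52, which anneals complementary strands, had 2.70 to 2.80 FPKM at 0 Gy and 2.80 to 2.97 FPKM at 10 Gy, a change of 0.05 that was not called. RAD54B, a relative of RAD54L, was near the limit of testing at 1.29 FPKM, had 59.1% of its exon bases in common with FSBP on the same strand, and was not called.

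Among the RecQ helicases and the proteins that dissolve joined molecules with BLM, the calls were lower for RMI1, RMI2 and TOP3A. The helicases BLM and WRN were not called, although the mean of BLM fell by 10.7%, near the 11.0% of TOP3A. The 3 lower calls became 0 with TPM scaling, only RMI1 remained called without 10 Gy replicate 1 or 2, and only TOP3A with no filter on low values. RMI1, which stabilises the BLM complex, had 15.9, 15.3 and 15.4 FPKM at 0 Gy and 12.3, 13.4 and 14.0 FPKM at 10 Gy. RMI2, its small partner, had 6.40, 5.30 and 5.75 FPKM at 0 Gy and 4.62, 4.54 and 5.07 FPKM at 10 Gy. Neither overlapped, with the irradiated libraries below. RMI1 fell by 14.8% (log2 change -0.22, SE 0.050, limma, adjusted p = 0.0151). RMI2 fell by 18.4% (log2 change -0.24, SE 0.069, limma, adjusted p = 0.0298), and its adjusted p was 0.0601 and 0.0645 without 0 Gy replicates 1 and 3, and 0.0910 and 0.0976 without 10 Gy replicates 1 and 2. TOP3A, the topoisomerase of the complex, went from between 16.9 and 17.3 FPKM to between 14.7 and 15.9 FPKM and fell by 11.0% (limma, adjusted p = 0.0160). For TOP3A the adjusted p was 0.0597 and 0.0613 without 10 Gy replicates 1 and 2. BLM itself had 3.32 to 3.78 FPKM and 2.98 to 3.43 FPKM in the 2 groups, which overlapped (change -0.13, limma, adjusted p = 0.152). WRN, the Werner syndrome helicase, had 3.19 to 3.79 FPKM and 3.62 to 4.29 FPKM, which also overlapped. Its change of 0.17 was not called (limma, adjusted p = 0.114), although it was with TPM scaling (adjusted p = 0.0321) and with recovered reads (adjusted p = 0.0141).

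Of the nucleases that cut joined or crosslinked molecules, MUS81 fell and the other 4 were not called. MUS81, the catalytic subunit of the MUS81-EME1 nuclease, had 10.7, 9.11 and 10.3 FPKM at 0 Gy and 7.63, 8.08 and 7.44 FPKM at 10 Gy. It fell by 23.1% without overlap (log2 change -0.34, SE 0.061, limma, adjusted p = 0.00613). Of its exon bases 13.9% lie opposite exons of the abundant gene CFL1. EME1, its partner, had 2.93 to 3.38 FPKM at 0 Gy and 3.06 to 3.16 FPKM at 10 Gy, with a 95% interval of the change from -0.13 to 0.13. The irradiated libraries of EME1 lay inside the control range. Of the exon bases of EME1, 16.4% lie opposite exons of LRRC59, which had 9311 reads per library on average. The part of this overlap in the EME1 level was not tested. SLX4, the scaffold that holds several nucleases, had 3.26 to 3.45 FPKM and 2.85 to 3.06 FPKM (change -0.14, limma, adjusted p = 0.0524), and FAN1, a nuclease recruited to crosslinks, had 3.08 to 3.59 FPKM and 2.79 to 2.90 FPKM (change -0.16, limma, adjusted p = 0.0712). Both were lower in every irradiated library without passing the threshold. Of the exon bases of FAN1, 24.3% lie opposite exons of MTMR10. SLX4 was called lower in 4 alternatives, a pseudocount of 0.1, upper quartile scaling, no intensity trend and protein-coding genes alone, and FAN1 in the last of these (adjusted p = 0.0430). GEN1, a resolvase that acts on Holliday junctions, was instead higher in every irradiated library, with 1.82 to 2.23 FPKM at 0 Gy and 2.44 to 2.57 FPKM at 10 Gy. Its change of 0.19 was not called (limma, adjusted p = 0.0607), although it was in 4 alternatives, TPM scaling, recovered reads, no intensity trend and protein-coding genes alone, with adjusted p between 0.00212 and 0.0440.

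In the Fanconi core complex and its conjugating enzyme, 5 of 9 genes fell, against the background of 23.7%, and none was higher by limma at an adjusted or an unadjusted p under 0.05, against 11.9%. With TPM scaling 2 were called lower, beside 1066 of all 12128 genes in that setting, and with recovered reads 3, beside 1888. With no filter on low values 2 were called lower, and without 10 Gy replicates 1, 2 and 3 there were 3, 2 and 2. FANCC (chromosome 9, 95099054 to 95426796), a subunit that binds FANCE and FANCF, had the largest fall in percent among the members. It had 2.65, 2.51 and 2.62 FPKM at 0 Gy and 1.78, 1.72 and 1.70 FPKM at 10 Gy. FANCE, which connects the core to FANCD2, had 14.4, 14.1 and 14.1 FPKM at 0 Gy and 11.8, 11.4 and 11.6 FPKM at 10 Gy. In both genes the groups lay well apart. FANCC fell by 33.2% (log2 change -0.39, SE 0.052, limma, adjusted p = 0.00208) and FANCE fell by 18.5% (log2 change -0.27, SE 0.032, limma, adjusted p = 0.00138).

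FANCA, the subunit most often mutated in Fanconi anemia, had 5.92, 6.26 and 6.95 FPKM at 0 Gy and 5.58, 4.96 and 4.80 FPKM at 10 Gy. UBE2T, the conjugating enzyme, had 49.6, 43.5 and 43.7 FPKM at 0 Gy and 41.1, 38.9 and 40.5 FPKM at 10 Gy. FANCG, which binds FANCA, had 22.6 to 24.6 FPKM at 0 Gy and 20.9 to 21.5 FPKM at 10 Gy. The irradiated libraries lay below the controls in each of these 3 genes, but by less than in FANCC and FANCE relative to the spread. FANCA fell by 19.9% (log2 change -0.27, SE 0.069, limma, adjusted p = 0.0213), UBE2T fell by 12.0% (adjusted p = 0.0406) and FANCG fell by 10.2% (adjusted p = 0.0216). With TPM scaling none of the 3 was called, with changes of -0.18 for FANCA, -0.05 for UBE2T and -0.03 for FANCG, nor was any with no filter on low values. The calls were also lost when some single libraries were left out. The adjusted p of FANCA was 0.0560 without 0 Gy replicate 3, and 0.0731 and 0.0676 without 10 Gy replicates 2 and 3. That of UBE2T was 0.0802, 0.131 and 0.0872 without 10 Gy replicates 1, 2 and 3. That of FANCG was 0.0519 without 0 Gy replicate 2, and 0.0819, 0.0645 and 0.0522 without 10 Gy replicates 1, 2 and 3. FANCA shares 23.6% of its exon bases with ZNF276 on the opposite strand.

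The remaining core genes were not called. FANCF had 1.41 to 2.13 FPKM and 1.21 to 1.64 FPKM, with as few as 65 reads in a library. FANCL, the E3 ligase of the complex, had 5.31 to 5.82 FPKM and 5.65 to 6.09 FPKM, and 18.7% of its exon bases lie opposite exons of VRK2. FANCM, the translocase that anchors the complex on DNA, had 2.93 to 3.25 FPKM and 3.14 to 3.25 FPKM, and FANCB had 1.80 to 2.61 FPKM and 2.11 to 2.70 FPKM. In these 4 genes the groups overlapped, and the changes were -0.19, 0.04, 0.05 and 0.05 on the log2(FPKM + 1) scale. FANCB was below 0 without 0 Gy replicate 1 (-0.07) and without 10 Gy replicate 2 (-0.01).

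Of the ID2 pair, on which the core complex acts, FANCI was called lower and FANCD2 was not called. FANCI had 11.7, 12.3 and 12.0 FPKM at 0 Gy and 10.3, 10.3 and 10.6 FPKM at 10 Gy. FANCD2 had 4.47, 4.95 and 4.55 FPKM at 0 Gy and 4.47, 4.95 and 4.91 FPKM at 10 Gy. The groups of FANCI did not overlap, and those of FANCD2 did. FANCI fell by 13.6% (log2 change -0.19, SE 0.035, limma, adjusted p = 0.00604, and 0.167 with TPM scaling), and the change of FANCD2 was 0.03 with a 95% interval from -0.10 to 0.16 (limma, adjusted p = 0.687).

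Ratios of partner genes within a library carry no library scaling, so they show unequal change whatever the scaling. The ratio of MUS81 to EME1 was 2.94 to 3.65 at 0 Gy and 2.43 to 2.56 at 10 Gy. That of FANCI to FANCD2 was 2.49 to 2.65 at 0 Gy and 2.08 to 2.29 at 10 Gy, and that of RBBP8 to BRCA1, whose proteins form a complex, was 2.44 to 2.68 at 0 Gy and 1.68 to 1.91 at 10 Gy. None of these 3 ratios overlapped between groups, and all were lower at 10 Gy. The ratio of BRCA1 to BARD1 was 1.11 to 1.27 and then 1.35 to 1.51, and that of BRCA2 to PALB2 was 0.718 to 0.818 and then 0.871 to 0.984. Both were higher in every irradiated library. By contrast, RMI1 to RMI2 was 2.49 to 2.88 at 0 Gy and 2.65 to 2.96 at 10 Gy, with overlap. RAD54L to RAD54B, at 4.54 to 6.35 and then 4.52 to 5.31, also overlapped. EXO1 to DNA2, NBN to RAD50 and UBE2T to FANCL were lower at 10 Gy without overlap. The ratios of RBBP8 to BRCA1 and of BRCA1 to BARD1 share BRCA1. The share of other gene pairs that separate was not computed. Among single genes tested, 32.8% lay all lower and 19.1% all higher at 10 Gy. With 3 libraries against 3, an exact two-sided permutation test of such a ratio cannot go below p = 0.1, so none was run.

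**Figure D4:**
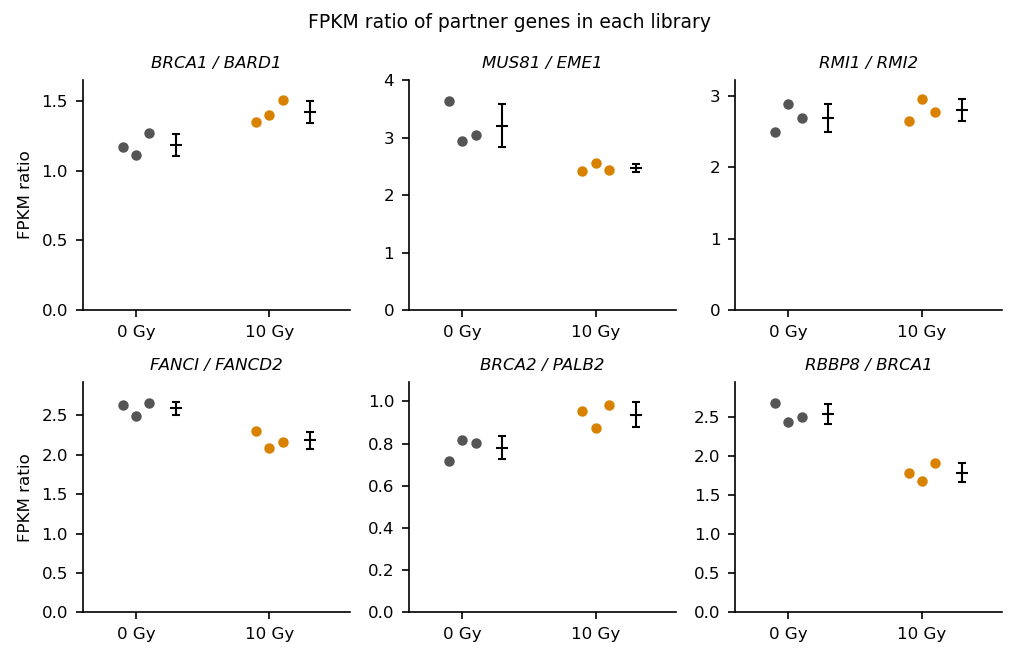
FPKM ratio of 6 gene pairs in each library, grey for 0 Gy and orange for 10 Gy, with the mean ± SD of each group (n = 3) beside the points and every axis starting at 0. The groups separate for all pairs shown other than RMI1 to RMI2.

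A further 50 genes of the pathway were listed, and 44 of them were tested. Of these, 13 (29.5%) were called lower, against the background of 23.7%, and 4 (9.09%) higher, against 11.9%, with a median change of -0.06. The counts were 6 and 8 with TPM scaling, where the median was 0.05 and 1066 and 3113 of all 12128 genes were called. With recovered reads the counts were 8 and 8, beside 1888 and 2776 of all genes. Leaving out 10 Gy replicate 2 gave 8 lower, and 2, 2, 0, 1 and 1 were called higher without 0 Gy replicates 1 and 3 and 10 Gy replicates 1, 2 and 3. Among those called, 3 had a mean at 10 Gy of 1/1.3 of the control or less: CENPX and CENPS, the histone-fold partners of FANCM, and USP1, which removes ubiquitin from FANCD2. CENPX fell by 33.8%, from 56.3 ± 4.99 to 37.3 ± 0.322 FPKM (SD, n = 3 each, limma, adjusted p = 0.000923). CENPS fell by 33.9% (limma, adjusted p = 0.00413) and USP1 fell by 28.1%, from 58.5 ± 1.32 to 42.1 ± 0.876 FPKM (limma, adjusted p = 0.000439). The 4 called higher were POLQ, the polymerase of microhomology-mediated joining, at 25.7%, PARPBP at 19.9%, WDR48, the activator of USP1, at 14.7%, and the helicase gene FBH1 at 9.84%.

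The gene for MRE11 is looked at here because RAD50 stood so low, a choice made after the values were seen. MRE11 had 6.90, 7.12 and 7.27 FPKM at 0 Gy and 7.49, 7.43 and 7.45 FPKM at 10 Gy, all higher after irradiation but not called (change 0.06, limma, adjusted p = 0.205). It was called higher with TPM scaling (change 0.19, adjusted p = 0.0179) and with recovered reads (change 0.15, adjusted p = 0.0227). Of the rest of its complex, NBN fell and RAD50 was not tested.

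Neighbouring gene lists are given beside the same backgrounds of 23.7% lower and 11.9% higher and the median of -0.04 over all genes tested. These backgrounds do not hold for TPM scaling. In that setting 1066 of all 12128 genes were called lower and 3113 higher, with a median of 0.08. Of 20 proliferation and S phase markers, 15 were called lower and 3 higher, with a median change of -0.28, and with TPM scaling 12 were lower and 3 higher. RRM2, which makes deoxynucleotides, fell by 38.4% and GINS2, of the replicative helicase, fell by 36.5% (limma, adjusted p = 0.000227 and 0.00129). The 3 called higher, CCNB1, TOP2A and CDK1, are most active in G2 phase and mitosis, and CCNB1 rose by 34.0% (limma, adjusted p = 0.000593). The part of cell cycle position in the members' changes was not tested. Of 13 tested non-homologous end joining genes, which join ends without a template, 5 were called lower and 0 higher, with a median change of -0.10. With TPM scaling 3 were lower and 2 higher, with a median of 0.02. Without any 1 of the 10 Gy replicates there were 3 lower. PAXX, which stabilises the end joining complex, fell by 23.8% (limma, adjusted p = 0.00423). At an unadjusted limma p under 0.05, 2 genes of that list were higher, PRKDC and TP53BP1. Of 16 checkpoint kinases and mediators, 5 (31.3%) were called lower and 2 (12.5%) higher, near the backgrounds, and the median change was -0.03. With TPM scaling 4 were lower and 4 higher, with a median of 0.09. H2AFX, the histone variant marked at breaks, fell by 28.2% and CLSPN fell by 27.1% (limma, adjusted p = 0.000707 and 0.00155), whereas ATM rose by 31.7% (limma, adjusted p = 0.00351) and MDC1 rose by 20.4%.

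**Figure D5:**
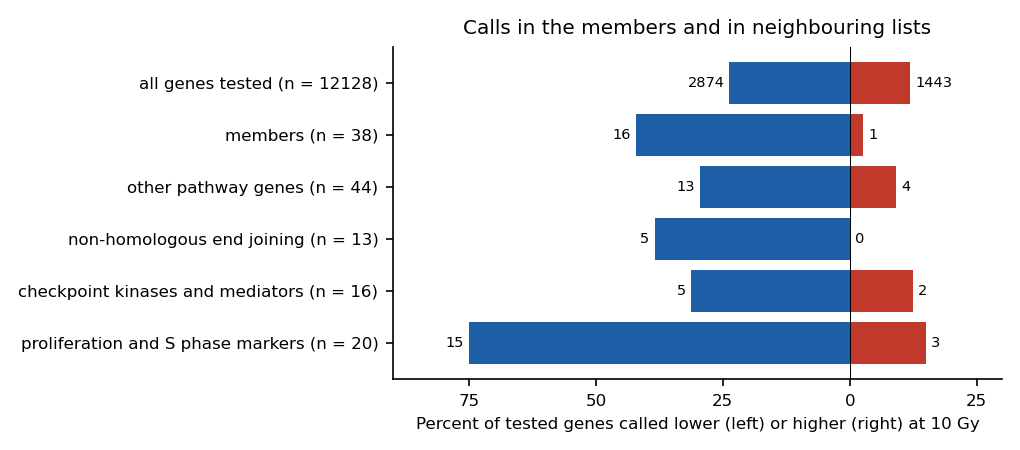
Percent of tested genes called lower (blue, left) or higher (red, right) at 10 Gy in the members and in the other lists, with the number of genes at the end of each bar, over all 12128 genes in the top bar. The members have 16 lower and 1 higher call of 38, and the S phase and proliferation list has 15 and 3 of 20.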

How the data were processed

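Gene expression of 6 MDA-MB-231 libraries (polyA RNA-sequencing, 3 at 0 Gy and 3 at 10 Gy, grouped by the sample labels) was compared. The authors deposited FPKM values. Per the submitters' processing notes, HISAT2 and GRCh38 were used. The counting program, its strand setting and the test behind the study's comparisons are not given in the sources used here. Gene coordinates and exon lengths in the table equal those of GENCODE 29 for all 58735 genes. FPKM times gene length and implied depth gave whole reads (within 0.05) for 100% of values above 0. The values already hold a library scaling factor, the implied depth over the recovered reads, and a larger factor lowers the FPKM. It separated by dose, with 0.973 to 0.991 in the 0 Gy libraries and 1.03 to 1.04 in the 10 Gy libraries. PCR copies are included in the recovered reads.

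Changes were tested in R 4.3.3 with limma 3.58.1 (pseudocount 1, mean of at least 1 FPKM, eBayes with trend, two-sided, Benjamini-Hochberg) after a test on simulated data. The members, gene lists, motifs and alternatives were chosen with earlier results of these data known. Values in all libraries are given for the 15 called members of largest change and for BRCA1, BRCA2, PALB2, FANCD2, FANCI and RAD51C. Of the 50 other pathway genes those called with a ratio of at least 1.3, up to 8, are named, and of the remaining lists the 2 of largest change. Where at most 5 genes of a list were called one way, some were named after their values were seen. A gene that these rules would name is not reported here. Alternatives covered pseudocount, filter, scaling, recovered reads, replicate block, eBayes trend, gene type and each replicate left out. Plots were made in Python 3.11.15 (matplotlib 3.10.9).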

Additional observations from a re-analysis of the deposited data

How the results depend on the processing

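The members called lower numbered 16 and lay between 11 and 19 in all alternatives but TPM scaling, which gave 8, and the member called higher, BRCA2, was 1. With TPM scaling and with recovered reads 4 members were called higher (BRCA2, GEN1, WRN and XRCC2), with protein-coding genes alone or without the eBayes trend 2, and with no filter on low values or a mean of at least 5 FPKM 0. Leaving out a replicate gave between 0 and 1. The other pathway genes called lower numbered 6 with TPM scaling, 8 with recovered reads, and between 8 and 11 when a replicate was left out. Those called higher numbered 8 with TPM scaling, 8 with recovered reads, 0 with no filter, and between 0 and 3 when a replicate was left out. The cause was not tested. For all genes, 1066 were called lower and 3113 higher with TPM scaling, 1888 and 2776 with recovered reads, and 1815 lower with no filter.

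No sign of pairing by replicate number was seen: correlations of deviations from the group means were -0.040, -0.035 and -0.101 for equal numbers, and no library at 0 Gy correlated best with its own number. With 3 libraries a group, this check cannot exclude a day or batch shared by number. With the replicate block 15 members were called lower, 0 higher, and 2 other pathway genes higher: BARD1 gained the call (adjusted p = 0.0337), FANCA, FANCG and BRCA2 lost it, and 3 core complex and 3 end joining genes were called lower.

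Members near 0 changed direction. With TPM scaling BRIP1 was at 0.016, RAD51C at 0.094, PALB2 at 0.097 and EME1 at 0.11, and with recovered reads RAD51C was at 0.045, PALB2 at 0.049 and EME1 at 0.069. With median of ratios EME1 was at 0.00036. Without 1 replicate EME1 ranged from -0.040 to 0.037, BRCA1 from -0.0066 to 0.046 and FANCB from -0.074 to 0.11. Of 591 values of single members under the alternatives, these 13 included, 520 kept direction and call, 42 lost the call and 16 gained it.

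With 3 libraries a group and as few as 65 reads on a member in a library, small changes of FANCF, FANCB, RAD54B and RAD50 are not detectable at this depth.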
